A study of Mus musculus with 3 samples.

Results

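Expression of 10 genes of the mesendoderm and of the Nodal signalling pathway was examined by RNA-Seq in mouse embryonic stem (ES) cells depleted of the nuclear pore protein NUP153. The genes were taken by symbol as a named list, T, Eomes, Mixl1, Gsc, Mesp1, Evx1, Nodal, Lefty1, Lefty2 and Tdgf1, and are 10 of the 24421 genes in the count tables. The cells were the female line EL 16.7, of the F2 strain background 129S1/CastEiJx 129S1, kept undifferentiated with LIF and serum on γ-irradiated embryonic fibroblasts (feeders) from Tg(DR4)1Jae/J mice. Control cells received a scramble shRNA by lentivirus and are labelled wild type. NUP153 KD-1 cells received shRNA-1 and NUP153 KD-2 cells received shRNA-2, each directed against mouse NUP153, and all 3 cultures were selected for 2 days with 2 μg/ml puromycin. Each condition is 1 library of transduced cells of 1 line. A difference between single libraries therefore has no replicate check, and no p-value is given for it. P-values are given only for both knockdown libraries taken as a group against the 1 control library. The shRNA sequences differ between KD-1 and KD-2, and the labels describe no rescue of either. A step that separates ES cells from feeders before RNA isolation is not given in the sources used here.

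Nodal is a secreted ligand of the TGF-β family that binds activin receptors together with the co-receptor Cripto, the product of Tdgf1, and signals through SMAD2, SMAD3 and SMAD4 with the DNA-binding partner FOXH1. Among its best known targets are Lefty1 and Lefty2, secreted antagonists that bind Nodal or its co-receptor and limit the signal, and Nodal itself. In the embryo Nodal signalling induces the primitive streak, where cells turn on T (Brachyury), Eomes, Mixl1, Gsc (Goosecoid), Mesp1 and Evx1 on the way to mesoderm and endoderm. Undifferentiated ES cells express the ligand, the co-receptor and the antagonists, whereas the streak transcription factors are known to be low in them.

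Sequences are shown first for the genes on which the results turn. Lefty1 and Lefty2 lie near each other on chromosome 1 (GRCm38, GENCODE vM21), Lefty2 at chr1:180893108-180899103 and Lefty1 at chr1:180935022-180938400, both on the plus strand. Their coding sequences are 1107 bases each and 1017 of the aligned bases, or 91.9%, are identical. The longest identical run is 140 bases. Of the 1058 stretches of 50 bases in the Lefty1 coding sequence, 281 (26.6%) also occur in Lefty2, so a 50-base read from these stretches cannot be placed on 1 of the genes. The pair of sequences below is the 60-base coding window in which they differ most, coding bases 34 to 93, at chr1:180935143-180935202 in Lefty1 and chr1:180893217-180893276 in Lefty2, with the 18 differing bases in capitals:
Lefty1: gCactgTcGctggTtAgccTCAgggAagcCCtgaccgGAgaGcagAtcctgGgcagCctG
Lefty2: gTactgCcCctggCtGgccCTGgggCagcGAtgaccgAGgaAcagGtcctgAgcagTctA

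The promoters of Tdgf1, Nodal and Eomes are shown because Tdgf1 and Nodal encode the co-receptor and the ligand, which differed in their response, and because Eomes was the gene of the list that was higher past 1.5-fold in both knockdown libraries, in KD-1 under 5 of 7 settings. Each sequence is the 250 bases before the gene's start in RefSeq (GRCm38.p6), at chr9:110946159-110946408 on the minus strand for Tdgf1, chr10:61417722-61417971 on the plus strand for Nodal and chr9:118477939-118478188 on the plus strand for Eomes. Capitals mark matches to the motifs searched on both strands:
Tdgf1: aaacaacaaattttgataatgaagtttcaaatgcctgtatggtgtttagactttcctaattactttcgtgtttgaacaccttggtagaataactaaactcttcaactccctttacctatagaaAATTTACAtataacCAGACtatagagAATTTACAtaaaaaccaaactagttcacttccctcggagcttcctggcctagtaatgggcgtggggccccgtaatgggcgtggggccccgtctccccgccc
Nodal: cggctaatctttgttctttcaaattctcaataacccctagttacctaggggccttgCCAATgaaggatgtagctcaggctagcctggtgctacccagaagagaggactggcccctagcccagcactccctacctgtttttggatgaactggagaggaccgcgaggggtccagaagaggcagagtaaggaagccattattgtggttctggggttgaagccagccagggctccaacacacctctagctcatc
Eomes: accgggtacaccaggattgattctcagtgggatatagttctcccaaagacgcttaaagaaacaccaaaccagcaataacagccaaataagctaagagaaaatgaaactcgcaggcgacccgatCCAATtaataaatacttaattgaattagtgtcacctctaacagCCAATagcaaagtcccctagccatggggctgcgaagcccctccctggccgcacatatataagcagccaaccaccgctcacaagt

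RefSeq promoters matched 7 of the 10 genes. In the Tdgf1 window a short form of the FOXH1 motif, TGTNNATT, matched at -127 and at -101 from the start, both times as AATTTACA in the printed strand, and the SMAD box GTCTG matched at -113 as CAGAC. The FOXH1 form occurs in 10.9% and the SMAD box in 42.2% of 32851 promoter windows of the same length. In the Nodal window only CCAAT matched, at -194, and in the Eomes window CCAAT matched at -127 and -84. CCAAT occurs in 33.8% of windows. The other forms searched were TATAAA, GTCTAGAC, AGGTGTGA, ATTTGCAT and CTTTGAT, found in 12.4%, 0.167%, 1.12%, 1.6% and 3.21% of windows, and none of them matched in these 3 sequences. The Tdgf1 window has a GC content of 42% with 7 CpG, the Nodal window 53.2% with 3 CpG and the Eomes window 46.4% with 8 CpG, against medians of 52.4% and 6 CpG over all windows. A match is a description of the letters, and binding was not measured here.

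In the control, KD-1 and KD-2 libraries 72344726, 85258834 and 69839336 reads were counted on genes. Nup153 had 27870, 16451 and 11126 reads, and after upper-quartile scaling its level stood at 0.504 of control after shRNA-1 and at 0.371 after shRNA-2. The ES cell identity of the cultures was checked with 18 pluripotency genes, none of which was at 0, and with Pou5f1, Sox2 and Nanog at 225, 190 and 285 RPKM in control. RPKM relates the reads of a gene to its exon length and to the scaled library size. The summed level of these 18 genes was 1.13 times that of control cells in KD-1 but 0.771 times in KD-2. Their median log2 ratio was 0.28 in KD-1 but -0.15 in KD-2, where 8 of the 18 lay above 0. The 15 fibroblast genes listed as feeder markers were also all detected, and their summed level was 0.474 times that of control cells in KD-1 but 1.84 times in KD-2. In these bulk cultures fewer cells of a type and less RNA per cell cannot be told apart.

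The genes other than Lefty1 and Lefty2 lie, in GRCm38 with GENCODE vM21 genes, at chr10:61417972-61425338 (Nodal, plus strand), chr9:110939603-110946158 (Tdgf1, minus), chr9:118478212-118486132 (Eomes, plus), chr12:104471209-104473330 (Gsc, minus), chr17:8434423-8442496 (T, plus), chr1:180693043-180697034 (Mixl1, minus), chr6:52313498-52318378 (Evx1, plus) and chr7:79792241-79793788 (Mesp1, minus). In control ES cells the 10 genes fell into an abundant and a scarce class. Lefty2 was the most abundant with 278 RPKM, followed by Tdgf1 with 265, Lefty1 with 109.5 and Nodal with 35.9. The 4 components of Nodal signalling therefore all stood above the 6 streak transcription factors. Evx1 had 0.985 RPKM, Eomes 0.858, Gsc 0.440, T 0.204, Mixl1 0.162 and Mesp1 0.0337. Exact 95% Poisson intervals, which cover counting error only, overlapped between the neighbours Evx1 (0.852 to 1.13) and Eomes (0.754 to 0.971), and between T (0.140 to 0.286) and Mixl1 (0.106 to 0.238). Gsc (0.313 to 0.602) was above T beyond its counting interval. Mesp1, a regulator of cardiac mesoderm, had 3 reads in control cells, 3 in KD-1 cells and 7 in KD-2 cells, below the minimum mean of 10 reads used for all comparisons, so no fold change is given for it. A count of 3 reads corresponds to 0.0337, 0.0287 and 0.0313 RPKM in these libraries.

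**Figure D1:**
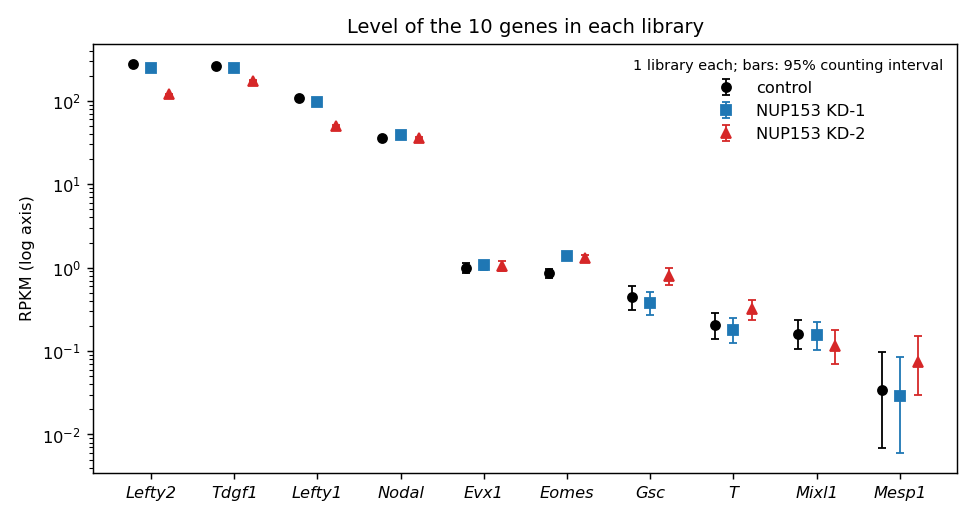
Level of each of the 10 genes in RPKM on a log axis, with 1 point per library and bars for the exact 95% Poisson interval of the reads. Lefty2, Tdgf1 and Lefty1 are lowest in KD-2, Nodal is at 35.4 to 38.9 RPKM in all 3 libraries, and the 6 streak transcription factors are below 1.5 RPKM throughout.

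The abundant genes were compared between the knockdown and control libraries to ask whether the components of the Nodal pathway responded together. They did not have equal ratios. In KD-2 both antagonists were lower than in control by more than 1.5-fold, while the ligand stayed close to its control level. The co-receptor was lower by more than 1.5-fold under the upper-quartile scaling only. In KD-1 the same 3 genes were lower by a smaller step that stayed within 1.5-fold. For each gene a log2 ratio of upper-quartile scaled reads is given with an exact 95% counting interval, and both ratios share the control library.

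Lefty2 had 50702 reads in control cells, 52751 in KD-1 cells and 23447 in KD-2 cells, which is 278, 247 and 119 RPKM. Its KD-2 value was the lowest by a wide margin and its KD-1 value was near that of control. The log2 ratio to control was -0.17 (interval -0.19 to -0.15) for KD-1 and -1.22 (-1.24 to -1.20) for KD-2, or 0.429 of control. Lefty1, the paralog best known from the midline of the embryo, had 13455, 13779 and 6605 reads, or 109.5, 95.7 and 49.9 RPKM. The order of the libraries was that of Lefty2. The log2 ratio of Lefty1 was -0.19 (-0.23 to -0.16) for KD-1 and -1.13 (-1.18 to -1.09) for KD-2. Among the 16670 genes tested, those averaging 10 or more reads, the KD-2 ratios stood at percentile 0.828 for Lefty2 and 1.16 for Lefty1, counted from the lowest.

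Tdgf1, which encodes the GPI-anchored co-receptor Cripto, had 48537 reads in control cells, 52418 in KD-1 cells and 34353 in KD-2 cells, or 265, 244 and 174 RPKM. KD-2 was again the lowest library, but by a smaller step than for the Lefty genes. The log2 ratio was -0.12 (-0.14 to -0.10) for KD-1 and -0.61 (-0.63 to -0.59) for KD-2, close to the 1.5-fold threshold of 0.585. The Tdgf1 ratio in KD-2 was past the threshold in 2 of 7 settings, both with the upper-quartile scaling. Under each other scaling of the libraries it stayed within 1.5-fold, from -0.57 with DESeq2 size factors to -0.23 with the summed ES cell markers. Of the 1883 stretches of 50 bases in the Tdgf1 transcript, 236 (12.5%) also occur in the pseudogene Tdgf1-ps1.

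Nodal itself had 5256, 6668 and 5585 reads, or 35.9, 38.9 and 35.4 RPKM. All 3 libraries were within a narrow range. The log2 ratio of Nodal was 0.11 (0.06 to 0.17) for KD-1 and -0.02 (-0.07 to 0.04) for KD-2. The sign of both Nodal ratios changed with the scaling, over -0.15 to 0.11 in KD-1 and -0.02 to 0.36 in KD-2, and neither passed the 1.5-fold threshold in any of the 7 settings.

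The streak transcription factors were compared in the same way to ask whether the program of the mesendoderm was higher after NUP153 depletion. Eomes, a T-box factor of streak, mesoderm and endoderm, was the 1 gene past 1.5-fold in both knockdown libraries. It had 249 reads in control cells, 463 in KD-1 cells and 406 in KD-2 cells, or 0.858, 1.36 and 1.30 RPKM. Both knockdown libraries were above control, and their own counting intervals overlapped. The log2 ratio of Eomes was 0.67 (0.44 to 0.89) for KD-1 and 0.60 (0.37 to 0.83) for KD-2. In KD-1 it was past 1.5-fold in 5 of 7 settings, with a lowest value of 0.40, and in KD-2 in 7 of 7. The highest Eomes level, 1.36 RPKM, was still far below the 35.4 RPKM that was the lowest level of Nodal.

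Gsc, a homeobox factor of the anterior streak and organizer, had 39, 39 and 76 reads, or 0.440, 0.376 and 0.796 RPKM. The KD-2 library was higher than both others, which did not differ beyond counting error. The log2 ratio of Gsc was -0.23 (-0.91 to 0.45) for KD-1 and 0.85 (0.28 to 1.45) for KD-2. T, the T-box factor of the streak and notochord, had 33, 34 and 55 reads, or 0.204, 0.179 and 0.316 RPKM. The KD-2 count was again the highest, on few reads. The log2 ratio of T was -0.18 (-0.92 to 0.55) for KD-1 and 0.62 (-0.02 to 1.30) for KD-2, which passed the 1.5-fold rule although its counting interval included 0. It passed the rule in 6 of 7 settings.

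Mixl1, a homeobox factor of streak and definitive endoderm, had 26, 29 and 20 reads, or 0.162, 0.154 and 0.116 RPKM, with log2 ratios of -0.07 (-0.89 to 0.75) for KD-1 and -0.48 (-1.40 to 0.41) for KD-2. A difference in Mixl1 was not detectable at this depth. Evx1, a homeobox factor of the posterior streak, had 198, 252 and 227 reads, or 0.985, 1.07 and 1.05 RPKM. Its log2 ratio was 0.12 (-0.15 to 0.40) for KD-1 and 0.09 (-0.19 to 0.37) for KD-2, and the sign in KD-1 changed with the scaling. The exons of Evx1 overlap the antisense gene Evx1os over 73 bases and those of Eomes overlap the antisense gene Gm33460 over 118 bases, which is 2.54% and 2.84% of their exons. Whether the counting used strand is not given in the sources used here. Evx1os, which RefSeq pairs with the older symbol 5730457N03Rik of the count tables, had 50, 45 and 37 reads.

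**Figure D2:**
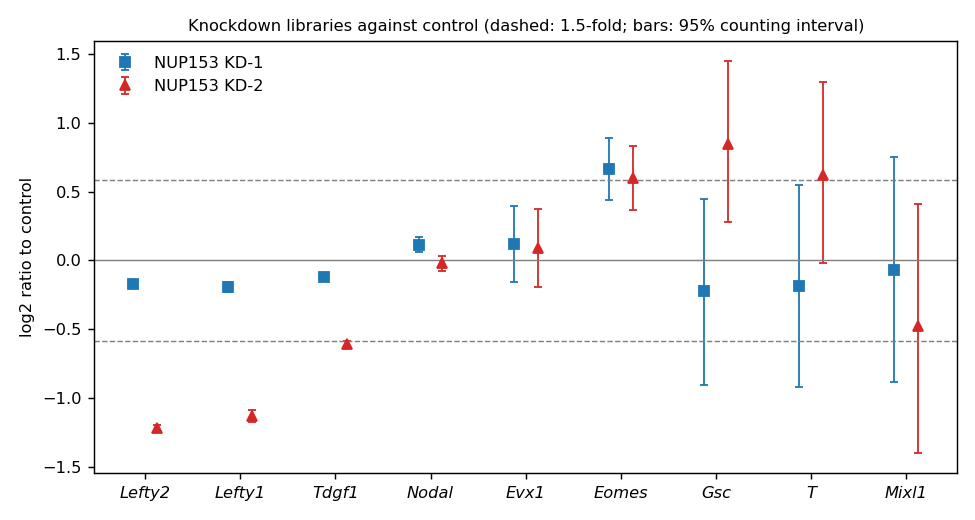
Log2 ratio of KD-1 and of KD-2 to the control library for the 9 genes tested, with exact 95% counting intervals and dashed lines at 1.5-fold. Lefty2, Lefty1 and Tdgf1 lie below the lower line in KD-2 only, and Eomes lies above the upper line in both libraries.

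Of the 9 genes tested, 1 was higher and 0 were lower past 1.5-fold in KD-1, where 8.63% of all 16670 genes tested were higher and 5.62% lower. In KD-2 3 genes (Gsc, T and Eomes) were higher and 3 genes (Lefty2, Lefty1 and Tdgf1) were lower, where 17.1% of all genes tested were higher and 10.2% lower. The median log2 ratio over the 9 genes was -0.12 for KD-1 and -0.02 for KD-2, against 0.02 and -0.02 over all genes tested. The summed level of all 10 genes was 0.911 of control in KD-1 but 0.555 in KD-2, and this sum is carried by Lefty2, Tdgf1 and Lefty1. Beside the KD-2 values stands the summed level of the pluripotency genes at 0.771 and of the 15 fibroblast genes at 1.84 of control, with 13 of these 15 higher and 0 lower past 1.5-fold. In KD-1 the fibroblast genes ran the other way, with 0 higher and 9 lower.

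The library scaling was therefore also set by the ES cell markers. With the summed pluripotency genes held equal between libraries, the log2 ratio in KD-2 was -0.84 for Lefty2 and -0.76 for Lefty1, which stayed past 1.5-fold, and -0.23 for Tdgf1, which did not. The same scaling put Gsc at 1.22, T at 1.00 and Eomes at 0.97 in KD-2, and moved the median of all genes by 0.375 in KD-2 and by -0.176 in KD-1. Relative to that shifted median the distances of the 9 genes are nearly those of the upper-quartile scaling. In KD-1 the ES cell marker scaling put Eomes at 0.49, within 1.5-fold. With the median ratio of the pluripotency genes in place of their sum, a choice made after seeing the data, the median of all genes moved by 0.111 in KD-2 and by -0.266 in KD-1. The KD-2 ratios were then -1.11 for Lefty2, -1.02 for Lefty1, -0.49 for Tdgf1 and 0.71 for Eomes.

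**Figure D3:**
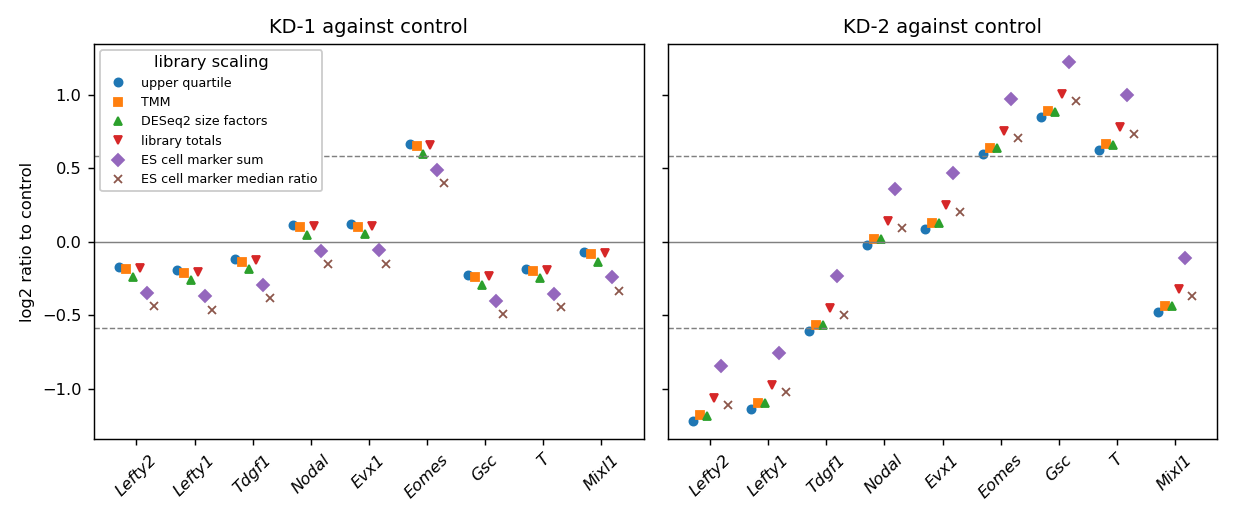
Log2 ratio to control of the 9 genes in KD-1 (left) and KD-2 (right) under 6 scalings of the libraries, with dashed lines at 1.5-fold. In KD-2 Lefty2 and Lefty1 stay below the lower line and Gsc and Eomes above the upper line under each scaling. Tdgf1 is below the lower line under the upper quartile only, and Nodal lies on both sides of 0.

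Ratios between reads of 2 genes within a library do not depend on the scaling, and were computed for the pathway after the ratios above had been seen. For each read of Nodal there were 9.65 reads of Lefty2 in control cells, 7.91 in KD-1 cells and 4.20 in KD-2 cells. The KD-2 ratio was 0.435 of control (95% counting interval 0.418 to 0.453) and the KD-1 ratio 0.820 (0.789 to 0.852). Lefty1 per Nodal was 2.56, 2.07 and 1.18, or 0.807 (0.773 to 0.843) and 0.462 (0.440 to 0.485) of control. Tdgf1 per Nodal was 9.24, 7.86 and 6.15, or 0.851 (0.819 to 0.884) of the control ratio with shRNA-1 and 0.666 (0.640 to 0.693) with shRNA-2. Antagonists and co-receptor were thus lower relative to the ligand in both knockdown libraries beyond counting error. Between libraries of 1 condition the spread of these ratios is not known.

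The antagonists kept nearly the same proportion to each other. Lefty2 per Lefty1 was 3.77 in control cells, 3.83 in KD-1 cells and 3.55 in KD-2 cells, or 1.02 (0.989 to 1.04) and 0.942 (0.911 to 0.974) of control. Since 17.9% of the 50-base stretches of the Lefty1 transcript and 11.6% of those of Lefty2 are shared with the other gene, reads from these stretches align equally well to both. The methods of the study name a minimum mapping quality, a filter that drops reads placed in several positions. The labels and the methods name different counting programs, and whether this filter applied to the deposited counts is not given. How reads of the shared stretches entered the counts of Lefty1 and Lefty2 is therefore not known. Lefty2 per Tdgf1 was 1.05, 1.01 and 0.683, which in KD-2 was 0.653 (0.640 to 0.667) of control. Lefty2 per Gdf3, a second ES cell ligand of the family, was 3.60, 3.14 and 1.97, which in KD-2 was 0.546 (0.530 to 0.562) of control.

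**Figure D4:**
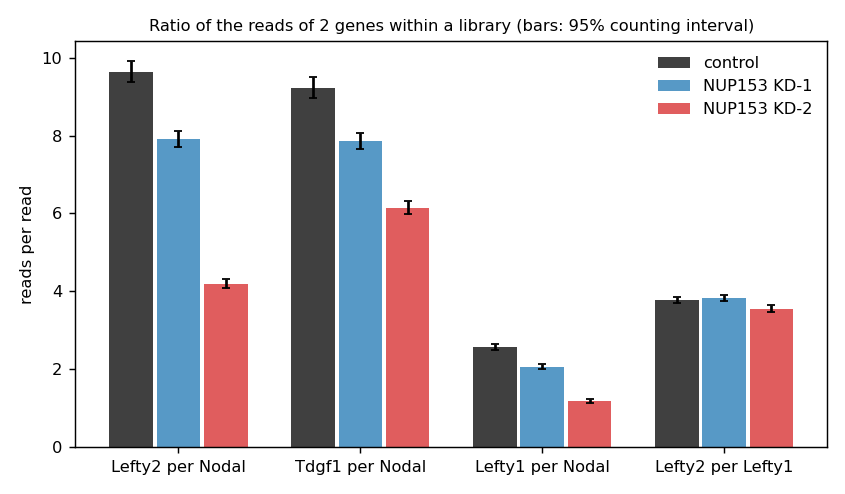
Reads of one gene per read of another within each library, with bars from 0 and 95% counting intervals. Lefty2, Tdgf1 and Lefty1 per Nodal are highest in control and lowest in KD-2, whereas Lefty2 per Lefty1 stays between 3.55 and 3.83.

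KD-1 and KD-2 were also compared directly, without the control library. Lefty2 was higher in KD-1 than in KD-2 with a log2 ratio of 1.05 (1.03 to 1.07), and Lefty1 with 0.94 (0.90 to 0.98). Gsc was lower in KD-1 with -1.07 (-1.68 to -0.51), and T with -0.81 (-1.48 to -0.17). These are 2 genes higher and 2 lower past 1.5-fold of 9, where 13.9% of all genes tested were higher and 16.1% lower. Tdgf1 differed by 0.49 (0.47 to 0.51), Nodal by 0.13 (0.08 to 0.19) and Eomes by 0.07 (-0.13 to 0.26). The median over the 9 genes was 0.13, against 0.12 over all genes tested. Lefty2 was past the threshold in 6 of 7 settings and Lefty1 in 5 of 7, while Gsc and T were past it in 7 of 7. Libraries that differ in their shRNA also differed in Nup153, which was lower in KD-2 than in KD-1 by the upper quartile but lower in KD-1 by the ES cell marker scaling, and in fibroblast genes, and the part of either in these differences was not tested.

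With both knockdown libraries taken as a group against control, the edgeR quasi-likelihood test had 1 residual degree of freedom, and its spread came from the difference between KD-1 and KD-2. None of the 9 genes passed, each with an adjusted p of 1, and 0 of 9 had an unadjusted p under 0.05 by edgeR or by DESeq2. The group log2 ratios were -0.60 for Lefty2, -0.59 for Lefty1, -0.34 for Tdgf1, 0.05 for Nodal, 0.63 for Eomes, 0.41 for Gsc, 0.28 for T, 0.10 for Evx1 and -0.26 for Mixl1. Over the settings tried, the unadjusted p was 0.137 to 0.209 for Lefty1, 0.187 to 0.256 for Lefty2 and 0.231 to 0.271 for Eomes, the lowest of the 9. Of all 16670 genes tested 1 gene passed, or 0.006%, with 211 at an unadjusted p under 0.05. A p that misses the threshold in this design does not show that the genes were equal.

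The rest of the Nodal pathway was described with 24 further genes, of which 23 had a mean of at least 10 reads. In KD-1 2 of the 23 were higher and 1 was lower past 1.5-fold, with a median log2 ratio of 0.09. These 2 are 8.7% of the list, close to the 8.63% of all genes tested that were higher. In KD-2 7 (30.4%) were higher and 0 were lower, with a median of 0.28, where 17.1% of all genes tested were higher and 10.2% lower. Among the ligands Gdf3, the most abundant with 83.2 RPKM in control, had 14086, 16801 and 11933 reads and log2 ratios of 0.03 (-0.01 to 0.06) and -0.35 (-0.38 to -0.31). Inhbb, the βB subunit of activin and inhibin, had 273, 600 and 541 reads, and both knockdown libraries were above control. The log2 ratio of Inhbb was 0.91 (0.70 to 1.12) for KD-1 and 0.88 (0.67 to 1.10) for KD-2. Gdf1 had 0 reads in all 3 libraries. Overlaps with other genes, whose reads may not be counted on either gene, were not examined for Gdf1.

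Among the antagonists outside the Lefty genes, Cer1 (Cerberus-like, a Nodal and BMP antagonist) had 6, 15 and 17 reads and log2 ratios of 1.04 (-0.35 to 2.75) and 1.33 (-0.01 to 3.03). The few reads left both intervals across 0. Fst (follistatin, which binds activin) had 5614, 3387 and 8683 reads, with log2 ratios of -0.96 (-1.02 to -0.90) for KD-1 and 0.52 (0.47 to 0.57) for KD-2. Fst followed the order of the fibroblast genes over the libraries, and the part of the feeders in it was not tested. None of these antagonists showed the order of Lefty1 and Lefty2, which were lowest in KD-2. Cfc1, the Cripto paralog Cryptic, had 23, 27 and 19 reads and log2 ratios of 0.00 (-0.85 to 0.87) and -0.37 (-1.34 to 0.56).

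The receptor with the highest RPKM was Acvr2a, an activin type II receptor, with 2689, 3384 and 2572 reads and log2 ratios of 0.10 and -0.17. Pcsk6 (PACE4), a convertase that can cleave the Nodal precursor, had 3886, 4101 and 5084 reads and log2 ratios of -0.15 and 0.28. Foxh1, the DNA-binding partner of the SMADs, had 2818, 3104 and 2544 reads and log2 ratios of -0.09 (-0.16 to -0.01) and -0.25 (-0.33 to -0.18). None of these 3 reached 1.5-fold. The corepressor Tgif1 had 9066, 11307 and 8696 reads with log2 ratios of 0.09 and -0.17. Chosen after their values were seen, the transducers Smad2 (-0.11 and -0.09) and Smad4 (-0.03 and -0.01) stayed within 1.5-fold in both libraries. Smad7, an inhibitory SMAD that TGF-β signals induce and also chosen after its values were seen, had 3425, 5435 and 5990 reads with 0.44 (0.38 to 0.50) and 0.70 (0.64 to 0.76). Skil, another inhibitor that these signals induce, chosen in the same way, had 6647, 9411 and 5669 reads with 0.27 (0.23 to 0.32) and -0.34 (-0.39 to -0.29). There were 0.0676 reads of Smad7 per read of Lefty2 in control cells, against 0.103 in KD-1 and a higher 0.256 in KD-2.

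**Figure D5:**
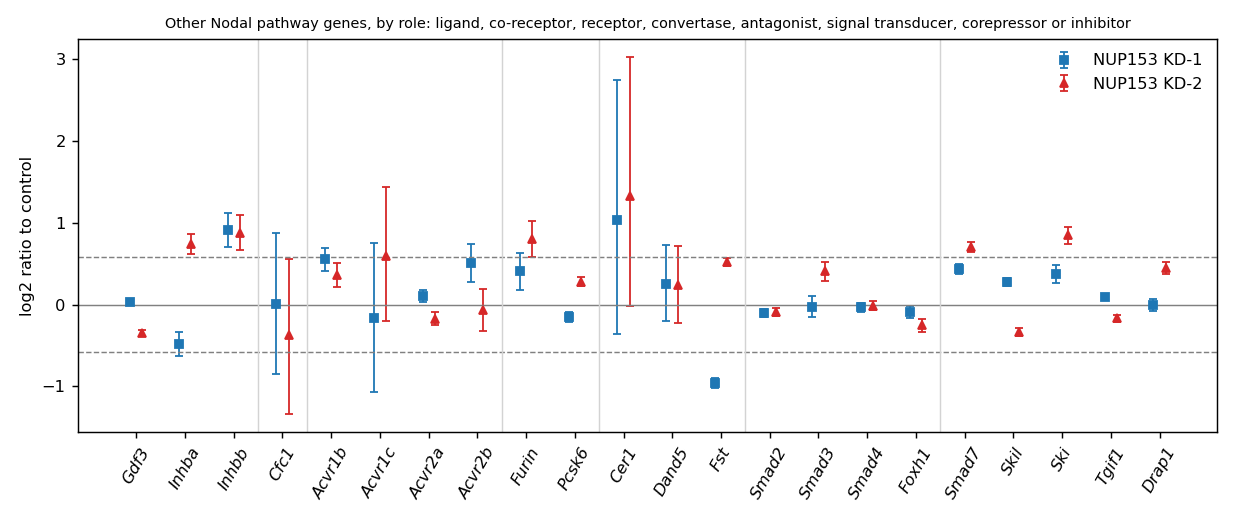
Log2 ratio to control of further Nodal pathway genes, ordered by role with lines between roles, with exact 95% counting intervals and dashed lines at 1.5-fold. Inhbb and Cer1 lie above the upper line in both knockdown libraries, Fst lies below the lower line in KD-1, and SMADs and receptors lie mostly between the lines.

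Of 27 further genes of the streak, mesoderm and endoderm, 19 had a mean of at least 10 reads. In KD-1 5 of the 19 were higher and 1 was lower past 1.5-fold, with a median log2 ratio of -0.01, or 26.3% and 5.26% of the list beside 8.63% and 5.62% of all genes tested. In KD-2 9 were higher and 1 was lower, with a median of 0.36, or 47.4% and 5.26% beside 17.1% and 10.2% of all genes tested. Genes higher in both were Kdr, Cdx2 and Foxj1. Kdr, the VEGF receptor of early mesoderm, had 296, 584 and 485 reads with log2 ratios of 0.75 (0.55 to 0.96) and 0.60 (0.39 to 0.82). Cdx2, a caudal homeobox factor of posterior mesoderm and trophoblast, had 6, 25 and 24 reads with 1.75 (0.51 to 3.41) and 1.82 (0.56 to 3.47), and Foxj1, a regulator of motile cilia, 26, 55 and 58 reads with 0.84 and 1.04.

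Other genes of this list followed the fibroblast genes, as Fst did. Foxf1, a mesenchymal forkhead factor, had 34, 26 and 92 reads with log2 ratios of -0.61 (-1.41 to 0.16) and 1.32 (0.75 to 1.94). Foxc2, a forkhead factor of paraxial mesoderm, had 218, 202 and 549 reads, and Pdgfra, a receptor of mesoderm and fibroblasts, 6423, 6255 and 11095 reads. All 3 were lowest in KD-1 and highest in KD-2, as was Col3a1, the most abundant fibroblast gene, with 54628, 25523 and 114064 reads. Cdh1 (E-cadherin), an epithelial gene of ES cells, was lower in KD-2 with 16935, 18356 and 11151 reads and log2 ratios of -0.11 and -0.71. Bmp4, the streak signal of highest RPKM, had 1933, 2007 and 1837 reads and log2 ratios of -0.17 and -0.18. Hhex, a homeobox factor of anterior endoderm, had 55, 115 and 50 reads, and was higher in KD-1 with 0.83 (0.36 to 1.33) but not in KD-2 with -0.24 (-0.83 to 0.33).

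Eomes was above control in both knockdown libraries, while KD-1 had 9 of the 15 fibroblast genes lower and KD-2 had 13 of them higher. Gsc and T were highest in KD-2 and lowest on the scaled level in KD-1, the order of the fibroblast genes, although KD-1 and control did not differ beyond counting error for either gene. The part of the feeders in Eomes, Gsc and T was not tested. In KD-2, where 10.2% of all genes tested were lower, 3 of 18 pluripotency genes (16.7%) and 3 of 7 formative epiblast genes were lower, and 8 of the 18 pluripotency genes lay above 0. Among the pluripotency genes Dppa5a, the one with most reads summed over the libraries, had 74575, 111186 and 54008 reads with log2 ratios of 0.35 and -0.57. Zfp42 (Rex1), named after its values were seen, had 82732, 99896 and 54998 reads, more than Dppa5a in control and KD-2, with 0.04 and -0.70, the latter past 1.5-fold. The genes Nr0b1 (0.67 and 0.59) and Utf1 (0.69 and 1.17) were past 1.5-fold higher in both libraries. Those were the 2 higher pluripotency genes of either library, and in KD-1 0 were lower. Dnmt3b, the formative gene with most reads, had 9221, 9389 and 6284 reads with -0.20 and -0.66. In both libraries Sall2 was higher (0.61 and 0.61) and Cldn6 lower (-0.77 and -1.32), so that KD-1 had 1 of 7 formative genes higher with 1 lower, while KD-2 had 2 higher. Markers of other lineages were scarce, with sums of 838, 1131 and 1286 reads over 10 primitive endoderm genes, led by Dab2 with 361, 502 and 604 reads. Of the 9 of these tested, 2 were higher past 1.5-fold in KD-1 and 4 in KD-2, where 8.63% and 17.1% of all genes tested were higher. The 9 trophoblast genes summed to 3312, 3301 and 2799 reads, most of them from Tfap2c, which ES cells also express, and Tpbpa was at 0 in all 3 libraries. Of the 6 trophoblast genes tested, Cdx2 and Gata3 were higher in both knockdown libraries, Gata3 with 17, 41 and 33 reads, and 0 were lower, beside the same shares of all genes tested.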

How the data were processed

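RNA-Seq was analysed in 3 libraries of mouse ES cells, 1 per condition, with groups taken from the labels. Per the labels the authors isolated total RNA, removed ribosomal RNA (Ribo-zero Gold), trimmed the 50 bp single-end reads with Trim Galore 0.4.1, mapped them with TopHat2 2.1.1 to mm10 and deposited raw counts per gene without normalization. By the methods, reads under a minimum mapping quality were not counted, but whether this holds for the deposited counts is not given. The labels name HTSeq and the paper's methods another counter, and the strand setting is not given in the sources used here. Rows that name no gene (23% to 25.6% of reads) were left out.

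The 24421 genes were joined to GENCODE vM21 by symbol (23334 matched). Reads were scaled by the upper quartile with edgeR 4.0.16 in R 4.3.3, a step the study also names, but without its RUVseq step, which used spike-ins. Log2 ratios used a pseudocount of 0.5 scaled reads, for genes averaging 10 or more reads, and a fold change above 1.5 was the threshold. Ratio intervals are exact conditional binomial (Clopper-Pearson) 95% intervals, level intervals exact Poisson, and within-library intervals log-normal. Intervals and floors of 3 reads cover counting error only, since reads carry no molecular identifiers. The group test was edgeR's quasi-likelihood test with Benjamini-Hochberg adjustment over all genes tested, at an FDR of 0.05. Its p-values measure only the spread between these samples. DESeq2 1.42.0 was an alternative. Scripts were tested on simulated data.

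The genes and lists were chosen with earlier results of these data known, so lists carry no test. A result for 1 gene of the pathway list is not reported here, although the gene is in the counts and medians of that list. Named were the 10 genes, Nup153 and, of each other list, the gene with most reads, those past 1.5-fold in both knockdown libraries and the gene of highest RPKM in each pathway role. Alternatives were TMM, DESeq2 size factors, library totals, scaling to ES cell markers, a pseudocount of 5, a fold change above 2, no minimum and a minimum of 100 reads, a robust fit, and, chosen after seeing the data, the median ratio of ES cell markers and the ratios within a library.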

Additional observations from a re-analysis of the deposited data

Results flagged for a closer look

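The 10 genes and the other Nodal pathway and streak, mesoderm and endoderm genes were searched, and 4 genes outside the 10 stood out because their ratios to control ran in opposite directions in the knockdown libraries, with both counting intervals away from 0 and 1 ratio or both past 1.5-fold. The difference was not tested, since each condition has 1 library. Inhba, the βA subunit of activin and inhibin, had a log2 ratio of -0.48 for KD-1 and 0.74 for KD-2. Fst had -0.96 and 0.52. Foxc2 had -0.34 and 1.22, and Pdgfra had -0.27 and 0.68. The summed level of the 15 fibroblast genes had the same order, 0.474 of control after shRNA-1 but 1.84 after shRNA-2, and its part in these ratios was not tested. The pluripotency and fibroblast lists were not searched by this rule. Zfp42, a pluripotency gene, ran the other way with 0.04 and -0.70. None of the 10 mesendoderm and Nodal pathway genes met this rule.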

How the results depend on the processing

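No paired analysis was possible because each condition has 1 library. Leaving out a knockdown library leaves the single comparison with the other, given in the report with no test. Of 180 ratios recomputed for the 10 genes, 125 stayed within the counting interval, 55 moved outside it and 0 that were past 1.5-fold changed sign. All 45 recomputed group values kept their direction, and none passed the test. The fits without a minimum and with the robust option returned the main log2 ratio of each gene, so those values could not change direction. The 45 do not include leaving out a library. Without KD-2, T was at -0.18 and Gsc at -0.23, against group values of 0.28 and 0.41. Without KD-1, Nodal was at -0.02, against a group value of 0.05.

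The number of the 10 genes higher in KD-1 was 1, and 0 under the ES cell marker scaling, under a fold change above 2 and under the median ratio of ES cell markers. The number higher in KD-2 was 3, with 0 above 2-fold and 2 with a pseudocount of 5, where T was at 0.57. Between KD-1 and KD-2 2 were higher, with 0 under the ES cell marker scaling, 1 above 2-fold and 1 under the marker median ratio, and 2 lower, with 1 above 2-fold. The number lower in KD-2 was 3, and 2 or 3 under each alternative. Of all 16670 genes tested, 1700 were lower in KD-2 by the upper quartile, 352 under the ES cell marker scaling and 309 above 2-fold. The number of the 10 genes higher in KD-2 stayed 3 under the ES cell marker scaling, where the all-gene number went from 2847 to 5818.

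Under the ES cell marker scaling the genes past 1.5-fold over all genes tested were 888 higher and 1595 lower in KD-1 (1438 and 937 by the upper quartile), 5818 and 352 in KD-2 (2847 and 1700), and 6483 lower and 346 higher in KD-1 against KD-2 (2691 and 2322). Library totals gave 820 lower in KD-2 and 1229 higher in KD-1 against KD-2. A fold change above 2 gave 515 and 255 in KD-1, then 903 and 309 in KD-2, then 523 and 1316 in KD-1 against KD-2. Without a minimum, over 21164 genes, the counts were 3211 and 2087, 4545 and 2916, and 4012 and 4068. With a minimum of 100 reads they were 479 and 549, 1745 and 1107, and 1389 higher, over fewer genes whose number is not given here.

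Of the other Nodal pathway genes, KD-1 had 1 higher above 2-fold and 1 with a minimum of 100 reads, and 2 lower under the ES cell marker scaling and 0 above 2-fold. KD-2 had 13 of 23 higher under the ES cell marker scaling, where 5818 of all 16670 genes tested were higher. It had 1 of 23 higher above 2-fold, where 903 of all genes tested were. Of the streak, mesoderm and endoderm genes, KD-1 had 1 higher above 2-fold, 9 without a minimum and 1 with a minimum of 100 reads. It had 2 lower under TMM and under DESeq2 size factors, 3 under the ES cell marker scaling, 4 without a minimum, and 0 with a pseudocount of 5, above 2-fold and with a minimum of 100 reads. KD-2 had 3 higher with a minimum of 100 reads, and 0 lower under library totals, the ES cell marker scaling and above 2-fold, and 3 lower without a minimum.

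The group test called 1 gene higher, 0 with DESeq2 size factors (123 at an unadjusted p under 0.05), 0 with the robust fit (214), 2 without a minimum (264) and 2 by DESeq2's Wald test (80), and none of the 10 genes was among them. Depth limits Mesp1, Mixl1, T and Gsc, with 3 to 76 reads a library.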
